A study of Mus musculus with 4 samples.

Results

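The genes described here are 49 mouse genes for lysosomal hydrolases, membrane proteins and the proton pump, of 55536 genes in the tables. They were taken by symbol from a list whose rule uses no measured value, though the list was drawn up with earlier results of these data known. All 49 symbols were found. The list holds 23 hydrolases, 3 soluble proteins that are not enzymes, 7 membrane proteins and 16 pump genes, of which 6 encode subunits of the membrane sector V0, 8 encode subunits of the ATP-hydrolysing sector V1 and 2 encode accessory proteins. Levels were measured by RNA sequencing of macrophages grown from the bone marrow of C57BL/6J mice. The RNA came from the cytosolic fraction and was depleted of ribosomal RNA. All cells had received lipid A, the part of bacterial lipopolysaccharide that TLR4 recognises, at 100 ng/ml for 12 hours. They were then washed, left for 12 hours and given lipid A again at 100 ng/ml for 15 minutes. The 4 libraries form 1 group and are called biological replicates 1 to 4 in the labels, which name 1 donor record for all 4 and record neither sex nor age. No untreated or singly treated cells are among the samples used here, so nothing below is a response to lipid A. Where nothing says that the cultures came from separate animals, the p-values measure only the spread between these libraries, which may be technical.

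The lysosome is the acidic compartment in which a macrophage breaks down what it has engulfed. Its lumen holds soluble hydrolases that cleave sugars, lipids, proteins and nucleic acids. Its limiting membrane holds heavily glycosylated proteins, channels and carriers, and the vacuolar proton pump of that membrane spends ATP to keep the lumen acidic. Many of these genes are known targets of TFEB, TFE3 and MITF, the MiT/TFE transcription factors, which bind a promoter sequence known as the CLEAR motif.

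Expected counts, the read numbers assigned to genes, summed to 30660511, 36681241, 48223718 and 42785115 in replicates 1 to 4. Replicate 1 was the shallowest library and replicate 3 the deepest. All 10 macrophage markers on the list used, among them Adgre1, Csf1r and Cd68, lay above the median of protein-coding genes, with a summed level of 1647 to 2747 TPM per library. TPM is a relative level per length of transcript, scaled to a fixed total in each library. Markers of other cells were low: 8 neutrophil genes summed to 1.00 to 2.15 TPM, 8 B cell genes to 1.71 to 2.45 TPM and 8 fibroblast genes to 0.10 to 0.42 TPM. The 8 T cell genes summed to 9.03 to 18.2 TPM, of which Cd4 alone made 8.46 to 18.0 TPM. The 8 osteoclast genes summed to 10.5 to 14.5 TPM, of which Nfatc1 made 9.63 to 12.9 TPM, while Calcr had 0 counts in all 4 libraries.

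The promoters are shown first, and the rule that chose the genes used no promoter sequence. Many of the genes are known targets of the factors that bind the CLEAR motif, so the list is not independent of it. The motif has the core CACGTG, a palindrome that reads the same on both strands. Its longer forms are TCACGTG, searched on both strands, and TCACGTGA. RefSeq promoter windows from 250 bases before to 50 bases after the annotated start (build GRCm38.p6) were given for 41 of the 49 genes. The core occurred in 13 of the 41 (31.7%), against 8.09% of 27025 genes in the same table and 13.2% of the protein-coding genes that were above the coding median in these libraries. TCACGTG occurred in the same 13 genes (31.7%), against 4.29% of all genes in the table and 8.74% of the coding genes above the median. TCACGTGA occurred in 7 of the 41 (17.1%), against 1.12% and 2.96%. In lists of other lysosomal genes outside the 49, the core occurred in 3 of 16 promoters of hydrolases, 1 of 19 of membrane genes, 0 of 8 of pump subunits and 5 of 8 of genes for the delivery of hydrolases. The longer forms contain the core, so the 3 counts overlap, and a match is a description of these letters and not evidence that a factor was bound.

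The 4 matches in Lamp1, the most of any of the 49 genes, lie within the 100 bases just before its start. That stretch, at chr8:13159061-13159160 on the plus strand, is printed with each core in capitals.

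Lamp1: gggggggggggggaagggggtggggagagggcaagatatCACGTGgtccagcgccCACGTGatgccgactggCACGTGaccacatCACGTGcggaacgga

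One window of 20 bases is printed for each of the 7 genes with the full form, written 5′ to 3′ on the strand of the gene, with the core in capitals. In each of them a t stands before the core and an a after it.

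Gla, chrX:134601187-134601206, minus strand: tctcggtCACGTGagcaact
Cd164, chr10:41519406-41519425, plus strand: ggctgctCACGTGaccggcg
Cln3, chr7:126583345-126583364, minus strand: gtactgtCACGTGaccccca
Mcoln1, chr8:3500467-3500486, plus strand: ccccgctCACGTGaccgcgg
Atp6v0d1, chr8:105566055-105566074, minus strand: ctgcggtCACGTGagacgcg
Atp6v0e, chr17:26676392-26676411, plus strand: cgccgatCACGTGagcctct
Atp6v1a, chr16:44139378-44139397, minus strand: tttaaatCACGTGataggct

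The 13 promoters held 20 cores, and all 20 had a T before or an A after them. Of the 20, 19 began before the start of transcription and 17 of these began within 150 bases of it. The cores were in 4 of the 6 membrane protein promoters given (Cd164, Cln3, Lamp1 and Mcoln1) and in 4 of the 11 pump promoters (Atp6v0b, Atp6v0d1, Atp6v0e and Atp6v1a). They were in 5 of the 21 hydrolase promoters (Arsa, Gaa, Gla, Glb1 and Naglu) and in 0 of the 3 promoters of soluble proteins that are not enzymes. The median of the mean levels was 60.4 TPM over the 13 genes with a core and 60.1 TPM over the 28 genes without one.

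**Figure D1:**
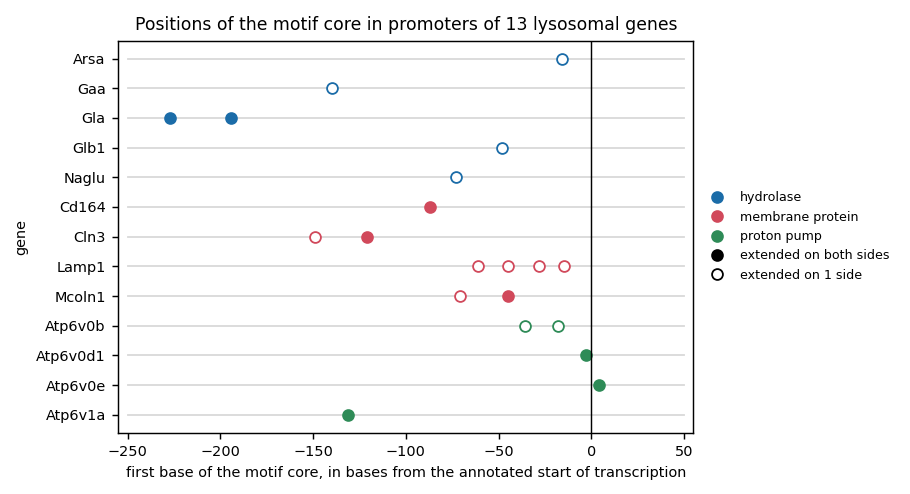
Position of each CACGTG core, in bases from the annotated start of transcription (vertical line), in the promoters of 13 genes, coloured by class. Filled points are extended by T and A on both sides and open points on 1 side. Of 20 cores, 19 lie left of the start, and Lamp1 has 4.

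All 49 genes were expressed. Each lay above 1 TPM (limma, one-sided, Benjamini-Hochberg adjusted over 16262 genes, largest adjusted p = 5.6e-07), as did 71.2% of the protein-coding genes tested and 58.2% of all genes tested. Below 1 TPM lay 0 of the 49 (0 also at an unadjusted p below 0.05), against 22.4% of the protein-coding genes and 35.1% of all genes tested. A stricter level was the median protein-coding gene of the same library. Above it lay 45 of the 49 (limma, largest adjusted p = 8.1e-05), against 45.8% of the protein-coding genes and 36.7% of all genes tested. The other 4 are the sulfatases Arsa and Arsb, the β-mannosidase Manba and the pump subunit Atp6v0d2. The median member had a mean level of 60.4 TPM, against 4.85 TPM for the median protein-coding gene. At least 10-fold above the coding median were 28 of the 49, comprising 13 of the 16 pump genes, 9 of the 23 hydrolases, all 3 soluble proteins that are not enzymes, and the membrane proteins Lamp1, Lamp2 and Cd164. The lowest of the 28, Man2b1 at 10.25-fold, lay at a mean percentile of 92.1 among the protein-coding genes tested. In bulk RNA, fewer cells of a type and less RNA per cell cannot be told apart.

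The 49 genes together made 3.48%, 4.08%, 4.10% and 3.74% of the protein-coding TPM of replicates 1 to 4. Without Lyz2 and Psap the remaining 47 genes made 1.42%, 1.71%, 1.71% and 1.69%. A pair of genes therefore carried more than the other members combined.

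**Figure D2:**
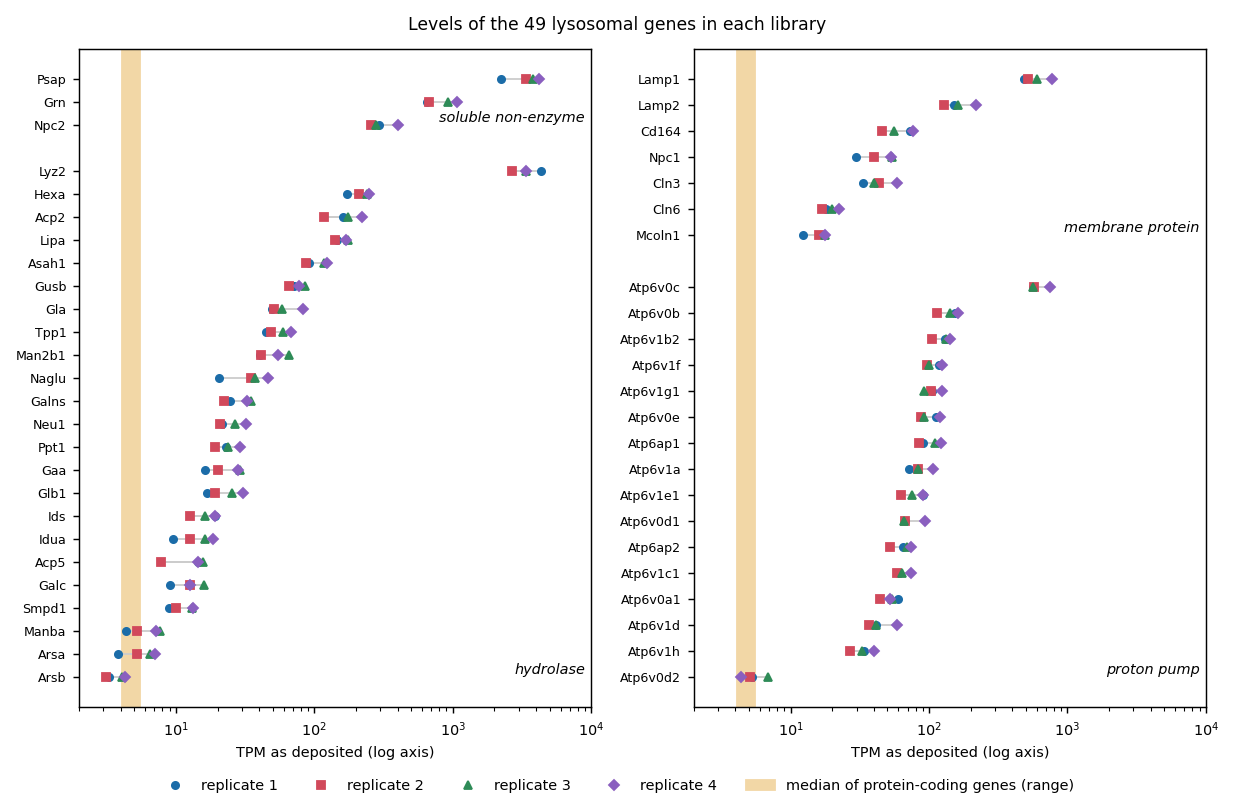
Deposited TPM (log axis) of each of the 49 genes in the 4 libraries, grouped by class and ordered by mean, with the range of the library medians of protein-coding genes shaded. Lyz2 and Psap, with means of 3430 and 3392 TPM, stand apart at the right, and the points of 4 genes (Arsa, Arsb, Manba and Atp6v0d2) reach the shaded band of 4.11 to 5.51 TPM.

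Of the enzymes of sugar chains, Lyz2 was by far the highest. Lyz2 (chr10:117277331-117282321, mm10) encodes lysozyme, which cleaves the peptidoglycan of bacterial walls. It had 4323, 2656, 3365 and 3377 TPM in replicates 1 to 4, a mean of 3430 ± 684 TPM (SD, n = 4) that ranked 8 among protein-coding genes. Replicate 1 was the highest, also after rescaling to protein-coding genes, while the lowest was replicate 2 on deposited TPM and replicate 4 on rescaled TPM. Of its 31-base stretches, 32.8% are also found in the neighbouring paralog Lyz1, to which the tables gave 0.990 to 1.69 TPM, so the division of reads between them is uncertain.

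Hexa encodes the α chain of β-hexosaminidase, the enzyme of GM2 ganglioside breakdown that is lost in Tay-Sachs disease. It had 173, 209, 242 and 248 TPM, lowest in replicate 1. Gla, the α-galactosidase lost in Fabry disease, averaged 60.4 ± 15.6 TPM and the α-mannosidase Man2b1 averaged 50.4 ± 11.9 TPM (SD, n = 4 each). Below these, the sialidase Neu1, the acid α-glucosidase Gaa and the β-galactosidase Glb1 lay close together, with means of 25.3 ± 5.20, 23.3 ± 6.09 and 23.0 ± 6.15 TPM (SD, n = 4 each). Within libraries, Neu1 was above Glb1 each time, while the place of Gaa against both changed from library to library. Manba was the lowest glycosidase at 6.12 ± 1.56 TPM (SD, n = 4), and its level over the coding median missed the threshold (limma, log2 0.31, adjusted p = 0.070).

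The 6 enzymes of glycosaminoglycan breakdown covered a wide range of levels, with the β-glucuronidase Gusb at the top and the arylsulfatase Arsb at the bottom. Gusb averaged 75.1 ± 8.61 TPM (SD, n = 4). Naglu, the α-N-acetylglucosaminidase of heparan sulfate breakdown, had 20.5, 34.7, 37.3 and 46.2 TPM. Its value in replicate 1 was lower than in the other libraries, and its spread was the largest of the 49. Galns, Ids and Idua, which act on keratan sulfate, on iduronate sulfate and on terminal iduronic acid, averaged 28.7 ± 6.14, 16.8 ± 3.04 and 14.2 ± 3.97 TPM (SD, n = 4 each).

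Arsb, the sulfatase that acts on dermatan sulfate, had 3.28, 3.15, 4.07 and 4.32 TPM. It was the only member below the coding median (limma, log2 −0.38, adjusted p = 0.0037), a call made for 46.1% of the protein-coding genes tested and 56.3% of all genes tested. Its 4 values lie within a narrow range and none reached its library's coding median. Arsb shares 31.7% of its 31-base stretches with Gm26527, a long non-coding RNA on the other strand at 0.740 to 1.14 TPM. The sources used here do not state whether counting used strand, so reads of the pair cannot be told apart. The posterior standard deviation of the Arsb count, as deposited by the authors, was 2.25% of the count, and it was at most 0.117% in every other member.

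Among the enzymes of lipids, the acid lipase Lipa, which frees cholesterol from its esters, had 145, 141, 174 and 169 TPM. The acid ceramidase Asah1 averaged 105 ± 18.4 TPM (SD, n = 4). Galc and Smpd1, the enzymes lost in Krabbe disease and in Niemann-Pick disease types A and B, were lower, at 12.6 ± 2.78 and 11.4 ± 2.20 TPM (SD, n = 4 each). Arsa, the sulfatase of sulfatide breakdown, averaged 5.64 ± 1.43 TPM (SD, n = 4). Its level was not called against the coding median (limma, log2 0.20, adjusted p = 0.26).

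The acid phosphatases Acp2 and Acp5 differed in level, and both were lowest in replicate 2. Acp2, the lysosomal acid phosphatase, had 162, 118, 176 and 221 TPM. Acp5, the tartrate-resistant phosphatase known as an osteoclast marker, had 14.5, 7.83, 15.8 and 14.5 TPM, with replicate 2 the lowest. Within each library Acp2 was higher, on average 12.9-fold (log2 ratio 3.69 ± 0.25, SD, n = 4). The exact two-sided sign-flip permutation test gave p = 0.13, the smallest that 4 libraries allow. Acp5 stood at a mean of 13.2 ± 3.61 TPM (SD, n = 4) and of the 8 osteoclast genes Nfatc1 was above the coding median at a mean of 11.3 TPM. Dcstamp, Ocstamp and Oscar reached at most 0.15, 0.01 and 0.02 TPM and Ctsk 0.490 to 1.28 TPM. The protease Tpp1 averaged 55.2 ± 10.3 TPM and the palmitoyl-protein thioesterase Ppt1 averaged 23.8 ± 3.97 TPM (SD, n = 4 each). Loss of either causes neuronal ceroid lipofuscinosis.

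The 3 soluble proteins that are not enzymes were all among the highest genes. Psap (chr10:60277627-60302597, mm10) encodes prosaposin, the precursor of the saposins that present lipids to the hydrolases. It had 2232, 3362, 3814 and 4161 TPM in replicates 1 to 4, a mean of 3392 ± 840 TPM (SD, n = 4), and replicate 1 was the lowest. Lyz2 was above Psap in replicate 1 and below it in the other libraries, so their order is not resolved. Grn, whose product progranulin is cut into granulins in the lysosome, had 647, 674, 917 and 1081 TPM. Npc2, which carries cholesterol within the lumen, had 295, 257, 279 and 400 TPM, with replicate 4 the highest.

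Within a library, the median log2 level of these 3 genes exceeded that of the hydrolases by 4.99 ± 0.07 (SD, n = 4), a 31.8-fold ratio of medians. Class medians rest on a list chosen with earlier results known and carry no test.

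Of the membrane proteins, Lamp1 (chr8:13159161-13175338, mm10) was the highest, with 489, 520, 601 and 769 TPM. Lamp2, like Lamp1 a glycoprotein that lines the lysosomal membrane and also needed for chaperone-mediated autophagy, had 152, 129, 163 and 220 TPM. The sialomucin Cd164 had 72.7, 45.6, 56.1 and 76.2 TPM. Replicate 4 gave the highest deposited TPM for all 3, though Cd164 was highest in replicate 1 after rescaling to protein-coding genes (229 TPM in replicate 1 and 208 TPM in replicate 4). Npc1, which hands cholesterol from the lysosome to the cell, and Cln3, a membrane protein lost in juvenile ceroid lipofuscinosis, averaged 44.3 ± 11.5 and 43.8 ± 10.8 TPM (SD, n = 4 each) and were not separated by their spread. Cln6, a protein of the endoplasmic reticulum that helps export lysosomal enzymes, averaged 19.4 ± 2.38 TPM. Its biological coefficient of variation, a measure of spread explained below, was the smallest of the 49. Mcoln1, the TRPML1 channel that lets calcium out of the lysosome, was the lowest, with 12.3, 16.1, 17.7 and 17.8 TPM. The membrane protein median exceeded the hydrolase median by 0.86 ± 0.18 on the log2 scale (SD, n = 4) and was below the pump median, with a difference of −0.85 ± 0.31.

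The pump genes lay closer to each other in level than the hydrolases, with 1 exception. Leaving out Atp6v0d2, the remaining 15 had mean levels between 33.4 TPM (Atp6v1h) and 614 TPM (Atp6v0c), and all 15 lay above the coding median. The hydrolase median was below the pump median in each library, by log2 differences of −1.90, −1.83, −1.46 and −1.64. The mean of −1.71 ± 0.20 (SD, n = 4) is 0.306 of the pump level.

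Atp6v0c encodes the proteolipid that forms most of the rotating ring in the membrane and is present in several copies per pump. It had 569, 577, 561 and 748 TPM, with replicate 4 apart from the others on this scale. Rescaled to protein-coding genes, the values were 1793, 2282, 1873 and 2042 TPM, and replicate 2 was the highest. The processed pseudogene Atp6v0c-ps2, which shares 11.9% of the 31-base stretches of Atp6v0c, was listed at 2.78 to 6.34 TPM. Atp6v0b, a related ring proteolipid, had 155, 114, 143 and 163 TPM, and Atp6v0e had 112, 88.1, 92.5 and 121 TPM. On deposited TPM both were lowest in replicate 2 and highest in replicate 4, but after rescaling to protein-coding genes both were highest in replicate 1, at 489 and 352 TPM.

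In the V1 sector, the highest were Atp6v1b2, a subunit of the ATP-hydrolysing head, at 128 ± 15.9 TPM, Atp6v1f at 110 ± 13.4 TPM and the stalk subunit Atp6v1g1 at 106 ± 13.4 TPM (SD, n = 4 each). The other head subunit, Atp6v1a, averaged 86.3 ± 14.9 TPM and the stalk subunit Atp6v1e1 averaged 80.3 ± 13.5 TPM. Atp6v1c1, which joins the stalks to the membrane sector, averaged 64.0 ± 7.16 TPM, the rotor subunit Atp6v1d averaged 44.5 ± 9.5 TPM and Atp6v1h averaged 33.4 ± 5.53 TPM (SD, n = 4 each). Medians of the V1 and V0 subunits lay close together, with a log2 difference of −0.07 ± 0.06 (SD, n = 4), negative in 3 libraries and positive in replicate 3. The accessory proteins Atp6ap1 and Atp6ap2 averaged 102 ± 17.1 and 65.0 ± 9.33 TPM (SD, n = 4 each). Atp6v1g1 and Atp6v1f share 24.0% and 18.4% of their 31-base stretches with the pseudogenes Gm13453 and AC169506.3, which were listed at no more than 1.59 and 0.10 TPM.

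Several positions of the pump can be filled by products of different genes, and here 1 gene had the highest TPM at each position compared. At position d, Atp6v0d1, the widely expressed form, had 67.3, 66.7, 66.2 and 94.0 TPM. Atp6v0d2, a form known from osteoclasts and kidney, had 5.30, 5.08, 6.89 and 4.4 TPM. The levels of the d forms did not overlap. Atp6v0d1 was 13.4-fold higher (log2 ratio 3.74 ± 0.47, SD, n = 4), positive in 4 of 4 libraries with the exact two-sided sign-flip p = 0.13. Atp6v0d2 lay at the level of the median coding gene (limma, log2 0.16, adjusted p = 0.39).

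At position a, the form that led was not on the list of 49. Atp6v0a1 had 59.9, 44.6, 53.7 and 52.5 TPM. Tcirg1, the a3 form of osteoclasts and macrophage lysosomes, had 100, 165, 147 and 211 TPM, higher than Atp6v0a1 in 4 of 4 libraries. The ratio of Atp6v0a1 to Tcirg1 was 0.348 (log2 −1.52 ± 0.57, SD, n = 4; exact two-sided sign-flip p = 0.13). Atp6v0a2, the a2 form known from the Golgi and endosomes, averaged 10.1 TPM, and Atp6v0a1 was 5.27-fold above it (log2 2.40 ± 0.29, SD, n = 4, the same exact p). Atp6v0a4, a kidney form, had 0 counts in all 4 libraries.

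Of the genes for alternative forms at the other positions, 5 were at or near 0. Atp6v1e2 had 0 counts in each library. Atp6v1b1, Atp6v1c2 and Atp6v1g3 had at most 1 count in any library, and Atp6v0e2 had at most 2. These lie under the limit of 3 counts that a count of 0 allows, so no ratio is given for them. Atp6v1g2, known from neurons, was detected at 1.54, 1.04, 1.26 and 1.17 TPM. Atp6v1g1 was 79.0-fold above it (log2 6.30 ± 0.30, SD, n = 4; exact two-sided sign-flip p = 0.13). Over the 9 other pump subunit genes, 3 passed the filter on low counts, and of these 2 lay above the coding median and 1 below.

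**Figure D3:**
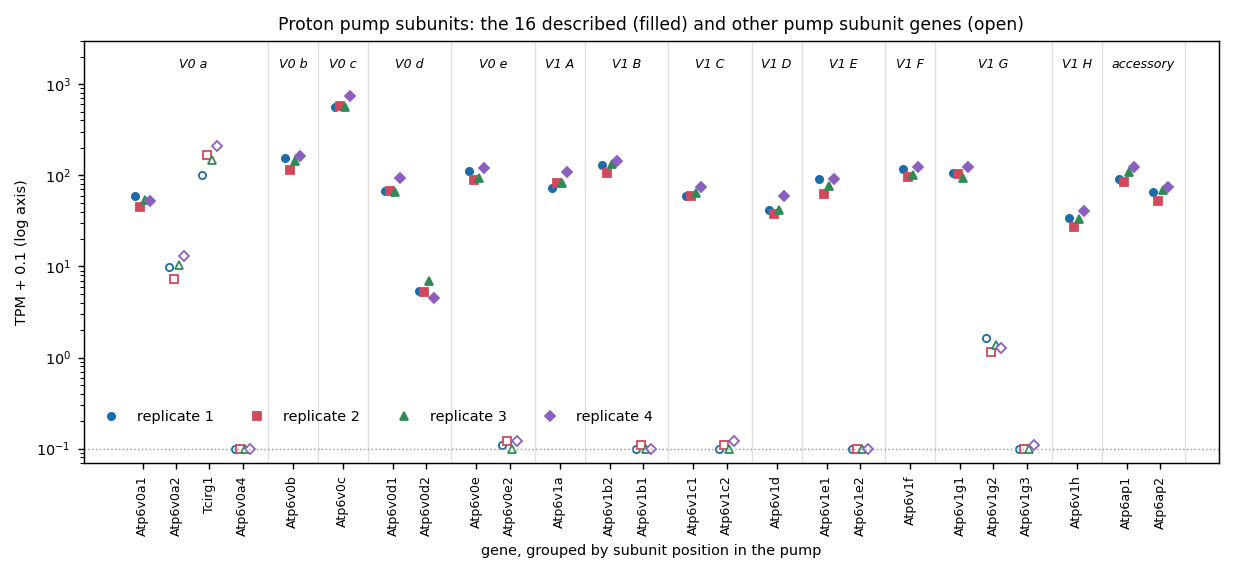
TPM plus 0.1 (log axis) of the 16 pump genes (filled) and 9 other pump subunit genes (open) in the 4 libraries, grouped by position in the pump. The dotted line marks a TPM of 0. At position a the open points of Tcirg1 lie above the filled points of Atp6v0a1, and 6 open genes sit at or near the dotted line.

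Other genes of the lysosome, from lists drawn up for the pathway with earlier results known, were mostly above the coding median too. Above it lay 45.8% of the protein-coding genes and 36.7% of all genes tested, and below it 46.1% and 56.3%. Of 25 genes on the list of other hydrolases, which also holds cofactors and the acetyltransferase Hgsnat, 20 lay above the coding median. On that list 3 lay below it and 2 were not called. Among the highest were Ctsa, the protective protein of β-galactosidase, at 289 TPM and the exonuclease Pld3 at 157 TPM. Of 21 other membrane genes, 20 passed the filter, of which 16 lay above the coding median, 3 below it and 1 was not called. The highest were Cd68 at 647 TPM, Laptm5 at 324 TPM and the tetraspanin Cd63 at 250 TPM, while Lamp5, known from neurons and plasmacytoid dendritic cells, had 0 counts in all 4 libraries.

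Of 10 genes that tag, sort or activate the hydrolases, 9 lay above the coding median, against 45.8% of the protein-coding genes tested. The cation-dependent mannose 6-phosphate receptor M6pr averaged 119 TPM and the larger receptor Igf2r averaged 11.9 TPM. The sulfatase-activating enzyme Sumf1, on which Arsa, Arsb, Galns and Ids depend, averaged 32.8 TPM, and the adaptor Gga1 averaged 24.9 TPM. Sort1, an alternative sorting receptor, was below the coding median at 1.18 TPM (limma, adjusted p = 5.1e-05).

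Of 17 MiT/TFE factors and regulators of these factors, 14 lay above the coding median, 0 below it and 3 (Mtor, Rragd and Zkscan3) were not called. Among the protein-coding genes tested, 45.8% lay above and 46.1% below. Of the factors themselves, Tfe3 averaged 34.2 TPM, Mitf 16.2 TPM, Tfeb 10.2 TPM and Tfec 8.07 TPM. Tfeb had 7.20, 8.77, 11.0 and 13.6 TPM in replicates 1 to 4. The highest of the 17 were the Ragulator subunit Lamtor1 at 94.3 TPM, the FLCN partner Fnip2 at 63.8 TPM and Lamtor5 at 62.0 TPM. These are levels of mRNA; the MiT/TFE factors are known to be controlled largely by their movement between cytosol and nucleus, which was not measured.

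In replicate 1 the median hydrolase and the median membrane protein lay below their means over the libraries and the median pump gene did not, a description with no test. The measure used was the log2 CPM of a gene (counts scaled to an effective library total) minus its mean over the 4 libraries. The median deviation of the 23 hydrolases was −0.22, −0.02, 0.19 and 0.02 in replicates 1 to 4. That of the 7 membrane proteins was −0.24, 0.02, 0.02 and 0.09. For the 16 pump genes it was 0.02, −0.03, −0.03 and 0.02. Over the protein-coding genes above the coding median it was 0.055, −0.076, −0.0006 and 0.015. Replicate 1 was the lowest library for 26 of the 49 genes, comprising 16 of 23 hydrolases, 4 of 7 membrane proteins, 2 of 3 other soluble proteins and 4 of 16 pump genes. It was the lowest library for 21.8% of the protein-coding genes above the coding median. Replicate 3 was the highest library for 15 of the 23 hydrolases, 1 of 7 membrane proteins and 3 of 16 pump genes, and for 21.9% of the protein-coding genes above the coding median.

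In lists outside the 49, replicate 1 was the lowest library for 14 of 25 other hydrolases and 13 of 20 other membrane genes. It was lowest for 8 of 17 MiT/TFE factors and regulators, 4 of 10 delivery genes and 1 of 3 other pump genes. That pump gene was Tcirg1, with a deviation of −0.50 in replicate 1, against 0.03 for Atp6v0a2 and 0.21 for Atp6v1g2. Outside the pump, the members furthest the other way were Lyz2, Cd164, Ids and Acp5, with deviations of 0.37, 0.27, 0.23 and 0.20 in replicate 1. The lowest values in replicate 1 were those of Naglu (−0.68), Psap (−0.54), Npc1 (−0.51) and Idua (−0.49). Replicate 1 also had the lowest total of counts, and the median deviation of the 10 macrophage markers was 0.06, −0.25, 0.19 and 0.08 in replicates 1 to 4. The part of depth or of cell composition in these deviations was not tested.

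**Figure D4:**
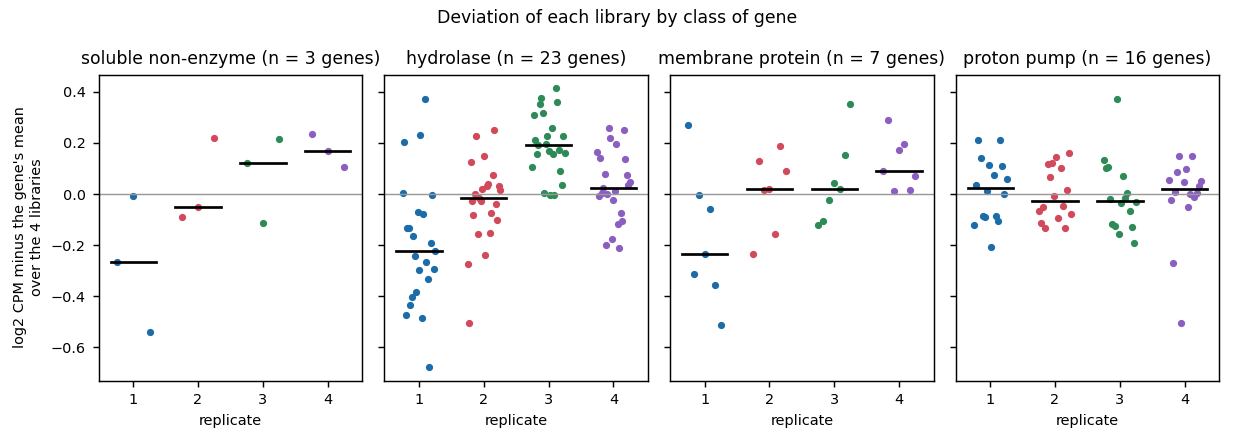
Deviation of each library from the gene's mean over the 4 libraries (log2 CPM), 1 point per gene, by class, with class medians as black bars. In replicate 1 the medians of hydrolases and membrane proteins lie at −0.22 and −0.24 and that of the pump genes at 0.02.

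The spread between replicates is given by the biological coefficient of variation, an estimate by edgeR of the relative SD left after counting error. edgeR draws the value of each gene toward that of other genes of similar level, so it is not the gene's own relative SD. Its median was 0.153 over the 49 genes, 0.166 over hydrolases, 0.164 over membrane proteins and 0.137 over pump genes. Over all protein-coding genes tested it was 0.170, and over those above the coding median 0.140. The smallest were Cln6 (0.112), Ppt1 (0.119) and Atp6v1h (0.119). These lie near the smallest value over all protein-coding genes tested, 0.112, and overstate the spread of the genes themselves. On TPM rescaled to protein-coding genes, the SD of Cln6, Ppt1 and Atp6v1h was 7.75%, 4.26% and 1.84% of the mean. Cln6 had 18.1, 17.0, 20.1 and 22.4 TPM, Ppt1 had 23.1, 19.2, 24.0 and 28.9 TPM and Atp6v1h had 33.8, 26.8, 32.7 and 40.3 TPM. The largest were Naglu (0.226), Psap (0.219) and Npc1 (0.205). Npc1 had 29.8, 40.4, 54.0 and 53.2 TPM, lowest in replicate 1 like Naglu and Psap.

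The reads of each library were quantified by the submitters in a pair of ways, once from an alignment and once directly. For this comparison both were rescaled to protein-coding genes, because the deposited TPM of the pair have different scales. Of the 49, 0 differed by more than 1 on the log2 scale at an adjusted p below 0.05 (limma treat; 0 also at an unadjusted p below 0.05). Among protein-coding genes tested, 0.266% were called higher and 0.697% lower in the gene tables, and among all genes tested 0.956% and 3.31%. The difference was within 0.2 for 46 of the 49. The exceptions were Npc1, higher in the gene tables by 0.31 ± 0.03 on the log2 scale, and Cln3 and Asah1, with differences of −0.44 ± 0.05 and −0.27 ± 0.03 (SD, n = 4 each).

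Most members were carried by 1 transcript. The leading transcript held a median of 95.1% of the gene's TPM in the first transcript table, and at least 90% in 31 of the 49 genes. The same transcript led in both tables in 48 genes. In 6 genes the leading transcript held under 60% in the first table, and 10 genes did so in either table.

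Lamp2 was divided nearly evenly between 2 coding transcripts. Lamp2-201 held 49.1%, 51.3%, 49.1% and 52.0% of its TPM in the 4 libraries and Lamp2-202 held 50.5%, 46.7%, 50.1% and 47.1%. In the second table Lamp2-201 held 54.3 ± 1.55% and Lamp2-202 held 44.6 ± 2.18% (SD, n = 4 each). Psap-202 and Psap-203 held 56.1 ± 3.74% and 41.0 ± 3.75%, and Gaa-203 and Gaa-201 held 53.0 ± 4.56% and 45.1 ± 4.37% (SD, n = 4 each). In the second table the leaders of both genes were further ahead, at 63.3 ± 4.28% for Psap-202 and 65.0 ± 5.92% for Gaa-203. Acp5-201 held 51.9 ± 6.69%, with Acp5-202 at 32.0 ± 4.09% (SD, n = 4 each).

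A retained-intron transcript led in 2 genes. Atp6v1d-202, a short transcript of this kind, held 52.0 ± 3.14% of the TPM of Atp6v1d in the first table and 61.9 ± 2.42% in the second, while the coding Atp6v1d-201 held 47.4 ± 2.94% and 37.3 ± 2.62% (SD, n = 4 each). For Arsa, the retained-intron Arsa-201 held 62.6 ± 4.11% and 56.7 ± 5.33%, and the coding Arsa-202 held 34.9 ± 3.98% and 40.1 ± 4.70% (SD, n = 4 each). The gene levels of Atp6v1d and Arsa given above include these transcripts. The libraries came from the cytosolic fraction, and how much nuclear RNA they held was not tested. Arsa also shares 16.9% of its 31-base stretches with the antisense gene C230037L18Rik, listed at 0.10 to 0.39 TPM.

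The tables differed on several genes. Idua-202 held 70.0 ± 3.94% in the first table and 91.2 ± 4.43% in the second, and Tpp1-201 held 89.2 ± 2.56% and 74.1 ± 3.77% (SD, n = 4 each). For Cln3, with 19 annotated transcripts, Cln3-204 led the first table at 24.9 ± 3.07% but held 4.51 ± 2.03% in the second, where Cln3-203 led at 31.2 ± 2.89% (SD, n = 4 each). Npc1-201, the coding transcript, held 62.8 ± 1.41% in the first table and 89.0 ± 4.83% in the second, and the retained-intron Npc1-206 held 35.5 ± 1.12% and 7.92 ± 3.26%. Asah1-201 held 95.1 ± 2.32% and 59.7 ± 6.06%, and Acp2-201 held 88.4 ± 1.5% and 61.0 ± 3.29%. Among pump genes, Atp6v1a-202 held 80.3 ± 2.54% and 55.8 ± 4.96%, and Atp6v0a1-202 held 62.7 ± 1.51% and 54.6 ± 1.55%. Cln3, Npc1 and Asah1 were also the 3 genes whose summed levels differed most between the quantifications. Cln3 shares 6.93% of its 31-base stretches with Apobr on the other strand, listed at 17.5 to 23.7 TPM. Npc1 shares 4.05% with Rmc1 on the other strand, listed at 7.09 to 9.42 TPM, while Asah1 shares 0.086% with other genes. The part of shared reads in these differences was not tested.

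**Figure D5:**
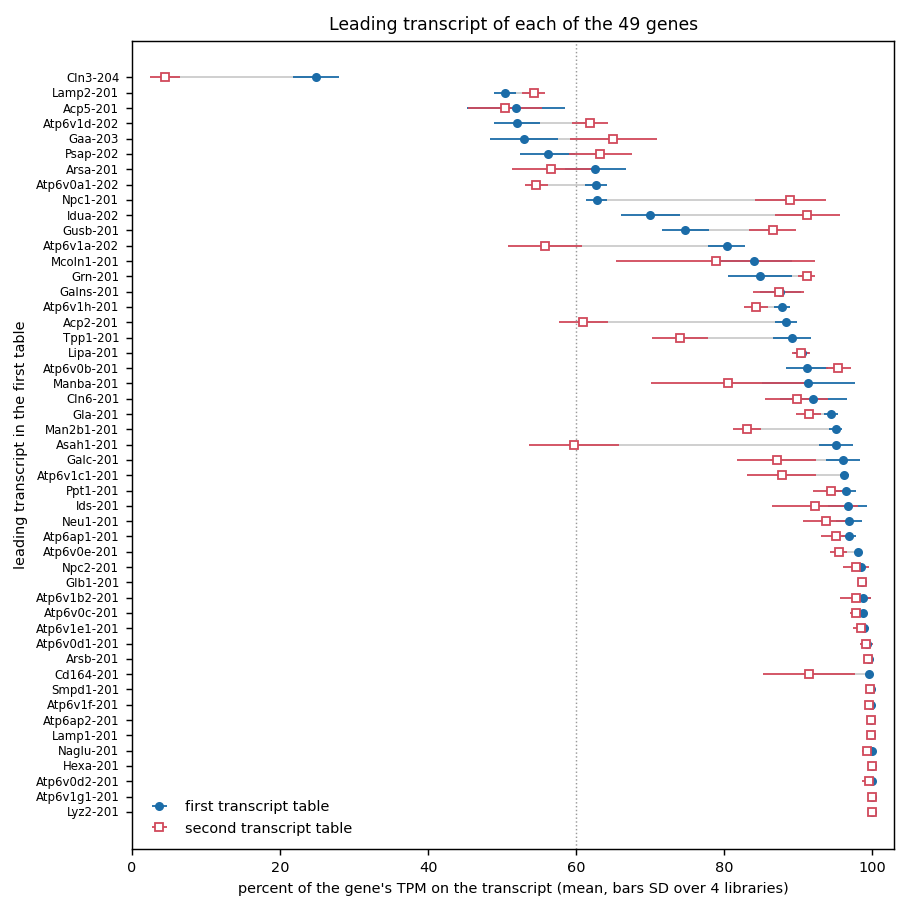
Share of each gene's TPM on the transcript that leads in the first table (filled circles) and the share of that transcript in the second table (open squares), as means with SD over 4 libraries. The dotted line marks 60%. Most of the 49 lie right of 80% in both tables, and Cln3-204, Npc1-201, Asah1-201, Acp2-201 and Atp6v1a-202 are far apart between tables.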

How the data were processed

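RNA of the cytosolic fraction was measured in 4 libraries of 1 group, and no conditions were compared. Per the deposited notes of each library, reads were quantified on mm10 with GENCODE M21, once from a transcriptome alignment and once directly from the reads. The software is not named in the sources used here. The authors deposited expected counts, TPM and a posterior standard deviation of each count per gene, the same per transcript, and estimated counts and TPM per transcript from the second quantification. All 55536 gene rows matched the annotation. The 26345 rows without a gene identifier held 0.0238% to 0.383% of the counts and were left out of the tests. Deposited TPM are relative to all RNAs in the table, so levels were also rescaled to protein-coding genes, which multiplied them by a factor of 2.73 to 3.95 depending on the library, and the coding median is taken within each library.

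The genes whose expected counts summed to 10 or more over the libraries entered a one-sided limma 3.58.1 test on log2(TPM + 0.1) against 1 TPM and against the protein-coding median, with Benjamini-Hochberg adjusted p-values and a threshold of 0.05. Fold changes on this scale understate the change of low genes. The pair of quantifications was set against each other on rescaled TPM, with limma treat at a log2 difference of 1, for genes of at least 1 rescaled TPM in either. Spread was estimated with edgeR 4.0.16 (TMM, estimateDisp) on expected counts rounded to whole numbers, with DESeq2 1.42.0 as an alternative. The tests were checked on simulated data. Shared sequence was counted as 31-base stretches of a gene's transcripts found in another gene on either strand. Limits for a count of 0 cover counting error alone, as PCR copies could not be told from separate molecules. The 49 members, the other gene lists and the marker lists were chosen with earlier results of these data known. Values for every library were given for the highest and lowest of each class, for the members of largest and smallest spread, for outlying libraries and for low leading shares, and other genes by their means. Acp2-201, Idua-202, Tpp1-201, Npc1-201, Npc1-206 and Tfeb were chosen for description after their values were seen. Single values of some listed genes are not reported here, and protein sequences were not used here.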

Additional observations from a re-analysis of the deposited data

Results flagged for a closer look

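In 72 sets of 4 values tested, 3 had a library whose gap to the others passed the critical value of Dixon's ratio at 95%, and chance flags about 1 in 20 such sets. Atp6v0c had 747.9 TPM in replicate 4, against 561.1 to 577.3 TPM in the other libraries. Atp6v0d1 had 93.97 TPM in replicate 4, against 66.23 to 67.33 TPM in the others. Acp5 had 7.83 TPM in replicate 2, against 14.5 to 15.8 TPM in the others. After rescaling to protein-coding genes, which multiplied deposited TPM by 2.73 in replicate 4 and by 3.15 to 3.95 in the others, none of these 3 stood apart by the same measure, and 4 other members did: Naglu, Lamp1, Atp6v1e1 and Atp6ap2. Rescaled Lamp1 was 1543 TPM in replicate 1 and 2005 to 2098 TPM in the other libraries.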

How the results depend on the processing

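No paired analysis was possible because the libraries form 1 group. The count of members above 1 TPM (49) and the direction of every ratio between forms of a subunit were the same under the alternatives run. Members above the coding median numbered 45, and 45 to 47 when 1 replicate was left out; Manba was called without replicate 1 or with posterior mean TPM, and Arsa without replicate 1. Without the filter on low counts, genes at 0 entered the coding median: members below it went to 0, against 1 with the filter, and Arsb turned to log2 4.30. Of the other genes, those below the median then numbered 6 for the pump (1 with the filter), 0 for hydrolases (3), 1 for membrane genes (3) and 0 for delivery (1). Below 1 TPM were then 6 pump and 1 membrane genes (0 and 0). With the second quantification 1 pump gene, 1 hydrolase, 2 membrane genes and 1 delivery gene lay below 1 TPM (0 each in the gene tables). With a minimum of 40 summed counts 2 MiT/TFE genes fell below the median (0). On deposited TPM, Npc1 was called between quantifications (log2 1.77), making 1 such member (0 on rescaled TPM). Rescaling multiplied the gene tables by 2.73 to 3.95 and the second quantification by 7.15 to 11.3. The deposited Npc1 difference therefore includes an offset of scale shared by all genes, and 1 TPM is not the same level in both quantifications. Median spread of the members was 0.119 with DESeq2, 0.175 in the second quantification and 0.134 to 0.162 without 1 replicate (0.153). For coding genes it was 0.121, 0.217 and 0.143 to 0.183, and 0.193 without the filter (0.170). In the second quantification, the membrane proteins exceeded the hydrolases by 1.16 (0.86), the other soluble proteins by 4.90 (4.99), V1 minus V0 turned to 0.0017 (−0.07, not resolved from 0) and the median leading share was 91.2% (95.1%). Beyond the difference of scale in deposited TPM, the cause of these shifts was not tested. With 4 libraries no sign-flip test can pass 0.05, and depth limits what can be said of the pump genes with at most 2 counts.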
